A study of Mus musculus with 9 samples.

Results

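The genes described here were the 3 D-type cyclins (*Ccnd1*, *Ccnd2* and *Ccnd3*) and the 7 inhibitors of cyclin-dependent kinases that act in G1: the Cip/Kip genes *Cdkn1a*, *Cdkn1b* and *Cdkn1c* and the Ink4 genes *Cdkn2a*, *Cdkn2b*, *Cdkn2c* and *Cdkn2d*. They were chosen by symbol, as 10 of the 22068 genes of the count table, and all 10 were among the 10100 genes tested. RNA-seq had been carried out on mouse embryonic fibroblasts (MEFs) to compare what a metatherian and a eutherian CRX protein do to the same cells. CRX is a paired-class homeodomain transcription factor, known in eutherian mammals for its role in photoreceptors.

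There were 3 conditions with 3 libraries each. All 9 libraries were polyA RNA of primary C57Bl/6 MEFs at passage 2, electroporated with a plasmid that carried a puromycin resistance gene. The metatherian CRX plasmid also carried V5-tagged opossum *CRX*, the eutherian CRX plasmid V5-tagged human *CRX*, and the control plasmid no homeobox gene. Every culture, the control included, had therefore been electroporated and selected, for 5 days in puromycin. The sample labels place a recovery of 48 h after selection. The study's methods place 48 h between electroporation and puromycin, and an overnight culture once the drug was gone. RNA was taken in triplicate, and nothing states that the libraries of a condition came from separate electroporations, so that p-values measure the spread between these samples, which may be technical. The cells are a selected but not cloned population.

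D-type cyclins bind CDK4 and CDK6 when growth factors are present, and the complexes phosphorylate the retinoblastoma protein, which releases E2F factors and opens the way into S phase. Ink4 proteins bind CDK4 and CDK6 and keep the D cyclins out, while the Cip/Kip proteins bind the assembled cyclin complexes and block mainly those of CDK2. In MEFs the products of *Cdkn2a* and *Cdkn1a* are known to accumulate with passage and with stress, and to mark cells that stop dividing.

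Depth was 54145701 to 94699657 counts per library, with TMM factors of 0.961 to 1.10. Library 3 of either CRX group stood apart: on the first principal component, which held 56.0% of the variance, eutherian CRX library 3 lay at 55.0 and metatherian CRX library 3 at 36.8, against -32.3 to 12.7 in the other 7, control library 3 (6.84) among them. Control library 3 also differed from control libraries 1 and 2, which lay at -32.3 and -21.4. The SD of its log2 differences to them over the genes tested was 0.551 and 0.444, against 0.243 between them. Metatherian CRX library 3 gave 0.553 and 0.573 to its own group, and eutherian CRX library 3 gave 0.850 and 0.885. Library 3 of the eutherian and metatherian CRX groups had summed levels of 10 fibroblast markers of 18394 and 22595 CPM (counts scaled to the same effective library size), against 37384 to 48302 CPM in the other 7. Apart from this sum, which *Fn1* leads, 8 of the 10 fibroblast markers had lower estimates with metatherian CRX than in control, and 0 passed the edgeR test (median log2 fold change -1.21). The libraries did not overlap for 6 of these 8, where 12.3% of all genes were lower without overlap. *Dcn*, decorin, measured 475, 423 and 211 CPM in control, 349, 432 and 158 CPM with eutherian CRX, and 63.0, 43.6 and 166 CPM with metatherian CRX. With eutherian CRX 9 of the 10 markers had lower estimates (median -0.40), 3 of them without overlap, where 788 of 10100 genes were lower without overlap. Summed macrophage and leukocyte markers were 38.8, 18.8 and 11.5 CPM in control, 22.1, 18.0 and 5.04 CPM with eutherian CRX, and 5.12, 7.06 and 10.8 CPM with metatherian CRX, so that in this sum each metatherian CRX library lay below each control library. Of the single markers only *Cd68* did so, while *Ptprc*, *Csf1r*, *Lyz2* and *Itgam* overlapped between these groups. The epithelial markers were each under 1 CPM throughout. The 4 neural markers summed to 23.8 to 137 CPM, highest in library 3 of the 2 CRX groups, a sum that *Nes* leads. *Sox2* was highest in the same libraries (4.77 CPM with eutherian and 3.16 CPM with metatherian CRX). *Tubb3* was highest in control library 3 (38.7 CPM), and *Sox10*, under 1 CPM throughout, was lower in both CRX groups than in control. The part of these marker levels in the differences below was not tested, and in bulk RNA fewer cells of a type and less RNA per cell cannot be told apart. Counts on the mouse *Crx* gene, which a human transcript can reach in part, were 627, 995 and 313 with eutherian CRX, 0 in each control library, and 4, 0 and 0 with metatherian CRX, so that this row checks the eutherian label but gives no check of the opossum gene.

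None of the 10 genes passed the test in any comparison with all libraries (edgeR quasi-likelihood test, Benjamini-Hochberg adjusted p under 0.05). That test called 3 of 10100 genes (0.0297%) between metatherian CRX and control, 61 (0.604%) between eutherian CRX and control and 0 (0%) between the CRX groups, where 1165 genes had an unadjusted p under 0.05. DESeq2 called 2 of the 10 genes with metatherian CRX (*Cdkn1b* and *Cdkn2c*, lower), where it called 9.94% of all genes, and 0 in the others, where it called 3.3% (eutherian CRX over control) and 3.14% (between the CRX groups). The limma voom test, with weights for the quality of each library, called 7, 2 and 7 of the 10 genes where it called 46.2, 16.8 and 48.3% of all genes. A fit of only the 6 libraries compared called *Cdkn1b* alone with metatherian CRX, where it called 3.97% of all genes, and none in the others, where it called 0%. At an unadjusted p under 0.05 stood 5 of the 10 genes with metatherian CRX, against 19.5% of all genes, 2 with eutherian CRX, against 8.56%, and 0 between the CRX groups, against 11.5%. The libraries of the metatherian CRX and control groups did not overlap for 5 genes after TMM scaling (6 with RLE factors, 4 on total counts): *Ccnd1* was higher, against 11% of all genes, and *Cdkn1b*, *Cdkn1c*, *Cdkn2c* and *Cdkn2d* were lower, against 12.3% of all genes. Eutherian CRX overlapped control for all 10 genes (14% of all genes did not overlap) and overlapped metatherian CRX for all 10 (11.5%). Both CRX groups were compared with the same control libraries. The median log2 fold change of the 10 genes was -0.36 with metatherian and -0.22 with eutherian CRX, beside -0.01 and 0.00 over all genes tested. With the libraries numbered 3 left out of every condition these medians moved to -0.14 and -0.03, beside 0.00 and 0.00 over all genes tested.

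**Figure D1:**
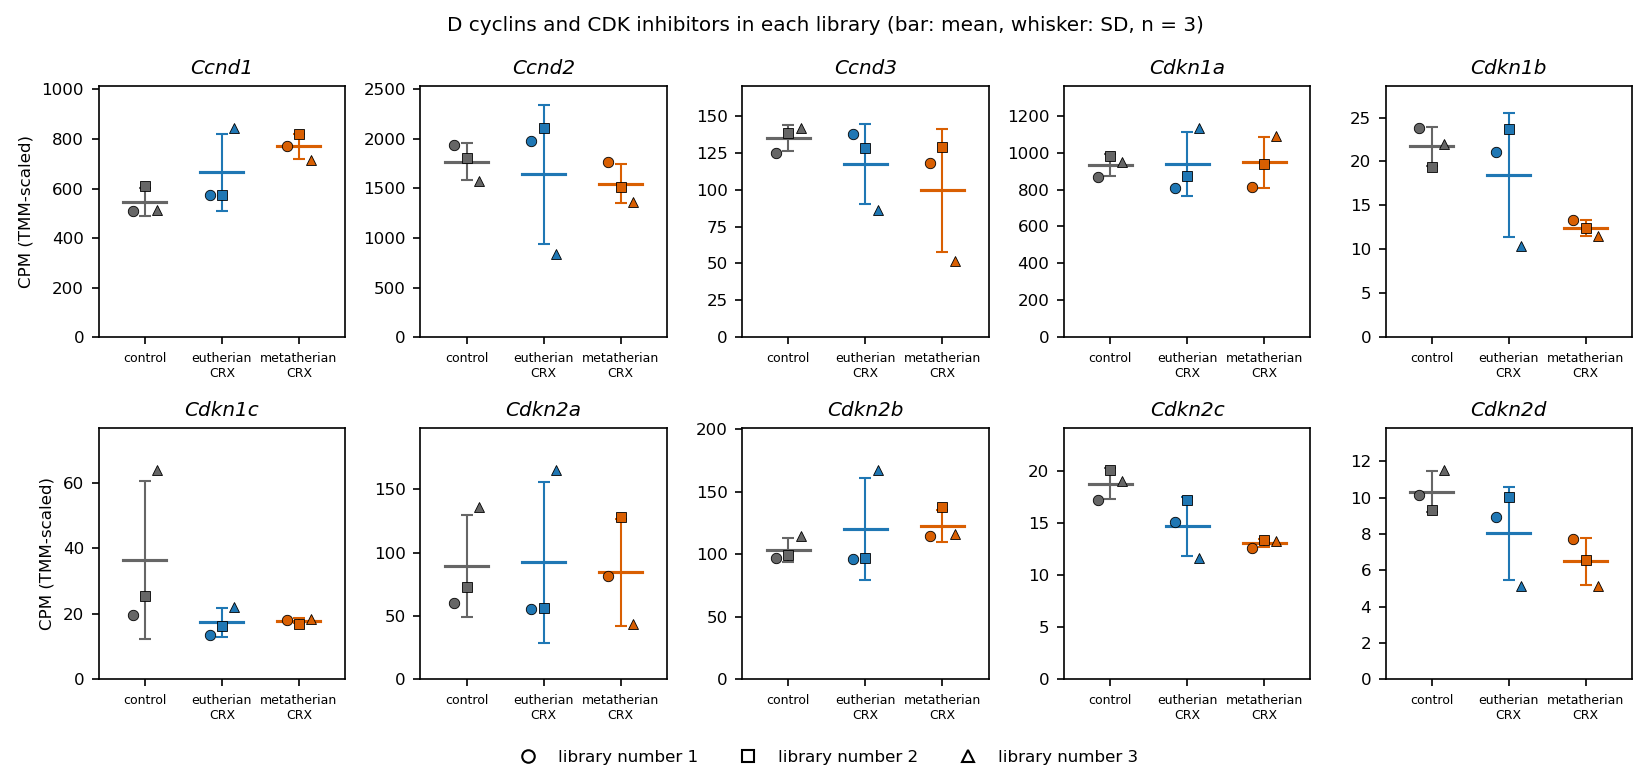
CPM (TMM-scaled, linear axes from 0) of each gene in each library, by condition, with the mean (bar) and SD (whisker) of 3 libraries and a marker shape for the library number. Metatherian CRX libraries sit above all control libraries for Ccnd1 (716 to 820 against 509 to 610 CPM) and below them for Cdkn1b, Cdkn1c, Cdkn2c and Cdkn2d, while eutherian CRX library 3 often lies far from eutherian CRX libraries 1 and 2.

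*Ccnd1* (chr7:144929931-144939937, reverse strand, GRCm38), cyclin D1, is the D cyclin best known as a target of mitogen signalling. Its level was 509, 610 and 515 CPM in control libraries 1 to 3, 575, 575 and 845 CPM with eutherian CRX, and 773, 820 and 716 CPM with metatherian CRX. Each metatherian CRX library lay above each control library, while with eutherian CRX only library 3 did so clearly. With metatherian CRX the log2 fold change was 0.50 ± 0.18 (SE, n = 3 per group), with a 95% interval from 0.08 to 0.92 and an edgeR adjusted p of 0.201. With eutherian CRX it was 0.28 ± 0.18 (edgeR adjusted p = 0.760), and 0.04 with the libraries numbered 3 left out of every condition. Between the CRX groups it was 0.22, with an interval from -0.20 to 0.65.

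*Ccnd2* (chr6:127125162-127152188, reverse strand), cyclin D2, was the most abundant D cyclin per length in every library but eutherian CRX library 3, where *Ccnd1* was higher (218 against 132 FPKM). It measured 1936, 1806 and 1572 CPM in control, 1982, 2110 and 839 CPM with eutherian CRX, and 1763, 1514 and 1368 CPM with metatherian CRX. Eutherian CRX library 3 was the one low library, and the conditions overlapped. Estimated log2 fold changes were -0.20 ± 0.24 with metatherian and -0.18 ± 0.24 with eutherian CRX (SE, n = 3 per group), with edgeR adjusted p of 0.688 and 0.909. The estimate for metatherian CRX was -0.01 without control library 3 and -0.37 without metatherian CRX library 3, and that for eutherian CRX turned to 0.13 without the libraries numbered 3.

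*Ccnd3* (chr17:47504738-47599689, forward strand), cyclin D3, measured 125, 138 and 142 CPM in control, 138, 128 and 86.4 CPM with eutherian CRX, and 118, 129 and 52.0 CPM with metatherian CRX. The lowest values were those of the libraries numbered 3 of both CRX groups, and the other 7 lay within 118 to 142 CPM. With metatherian CRX the log2 fold change was -0.54 ± 0.26 (edgeR adjusted p = 0.315) and -0.09 ± 0.09 with the libraries numbered 3 left out of every condition (edgeR adjusted p = 0.491).

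Per length of transcript, *Ccnd1* supplied more of the D cyclin transcripts in the metatherian CRX libraries. In FPKM (CPM divided by the merged exon length in kilobases), the *Ccnd1* share of the 3 D cyclins was 27.5, 32.3 and 31.1% in control, 29.3, 28.4 and 57.5% with eutherian CRX, and 38.6, 42.9 and 44.3% with metatherian CRX. The ratio of *Ccnd2* to *Ccnd1* FPKM was 2.32, 1.80 and 1.86 in control, 2.10, 2.24 and 0.606 with eutherian CRX, and 1.39, 1.12 and 1.16 with metatherian CRX. Metatherian CRX and control did not overlap in either measure. Eutherian CRX libraries 1 and 2 lay within the control range and library 3 beyond the metatherian CRX values. The two-sided exact permutation p for metatherian CRX against control was 0.1 for each, the smallest that 3 against 3 libraries allow, so that this design cannot reach 0.05, and adjusted over the 39 such tests made it was 0.557. The summed D cyclin FPKM overlapped, at 428 to 488 in control, 379 to 524 with eutherian CRX and 418 to 517 with metatherian CRX.

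The exons of *Ccnd1* share 1049 bases with *Oraov1* on the opposite strand, and those of *Ccnd3* share 359 bases with *Bysl*. Whether the counting used strand is not stated in the sources used here, so reads from these stretches cannot be told apart. The partners were low and overlapped between all conditions, *Oraov1* at 17.3 to 24.0 CPM and *Bysl* at 35.6 to 49.4 CPM.

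**Figure D2:**
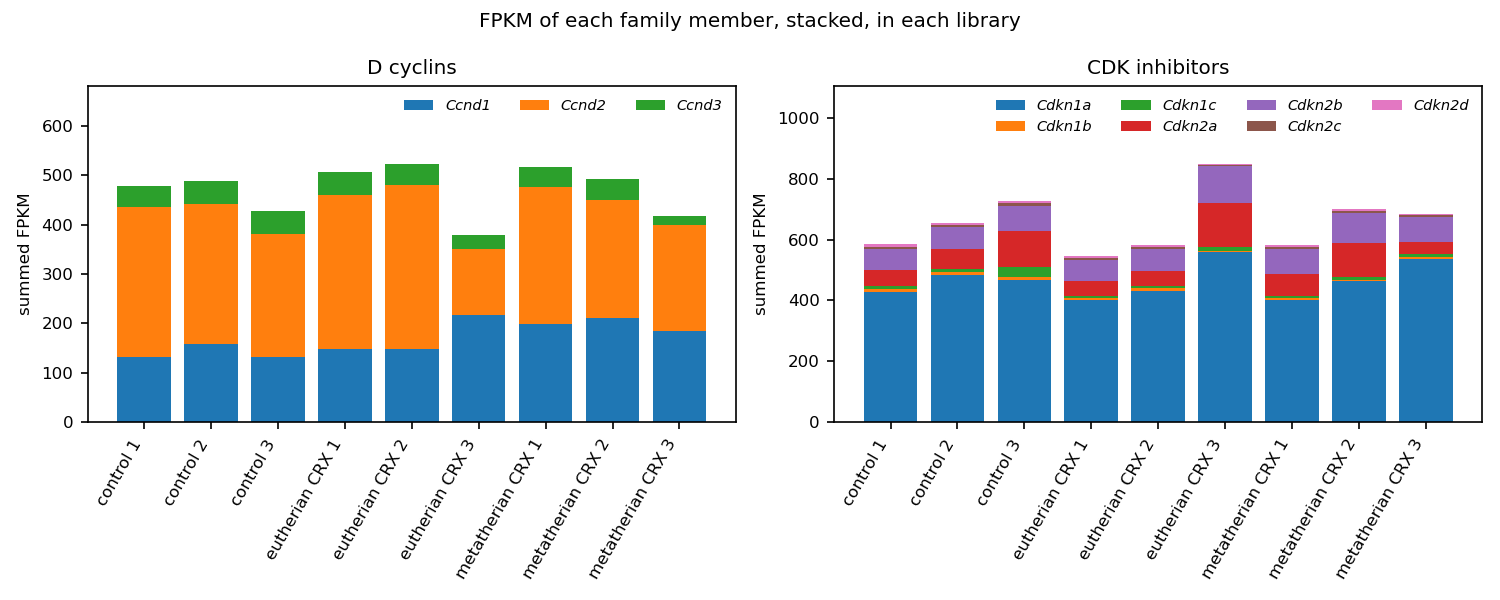
FPKM of each gene, stacked, in each of the 9 libraries, with the D cyclins on the left and the CDK inhibitors on the right (linear axes from 0). Ccnd1 takes 38.6 to 44.3% of the D cyclin bar in the metatherian CRX libraries against 27.5 to 32.3% in control, and Cdkn1a takes most of every inhibitor bar.

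*Cdkn1a* (chr17:29090986-29100722, forward strand), which encodes p21 and is known as a target of p53, was the most abundant of the 10 genes per length in every condition. It measured 865, 981 and 948 CPM in control, 811, 873 and 1134 CPM with eutherian CRX, and 813, 938 and 1089 CPM with metatherian CRX. All conditions overlapped, and both CRX groups had their highest value in library 3. Its log2 fold change was 0.01 with metatherian CRX, with a 95% interval from -0.28 to 0.30 (edgeR adjusted p = 0.967), and 0.00 with eutherian CRX, with an interval from -0.30 to 0.29. The sign of both differences turned with the scaling of the libraries.

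*Cdkn1b* (chr6:134920401-134925525, forward strand) encodes p27, an inhibitor of CDK2 complexes that is high in resting cells. Its level was 23.8, 19.4 and 22.0 CPM in control, 21.1, 23.7 and 10.4 CPM with eutherian CRX, and 13.3, 12.5 and 11.5 CPM with metatherian CRX. Every metatherian CRX library lay below every control library, as did eutherian CRX library 3, while eutherian CRX libraries 1 and 2 lay within the control range. Its log2 fold change was -0.82 ± 0.25 with metatherian CRX, with an interval from -1.41 to -0.22 and an edgeR adjusted p of 0.160. With eutherian CRX it was -0.30 ± 0.25 (edgeR adjusted p = 0.827), turning to 0.06 without the libraries numbered 3, and between the CRX groups -0.52 ± 0.25, with an interval from -1.12 to 0.07 and an edgeR adjusted p of 0.480. Between the CRX groups it was -0.24 without eutherian CRX library 2 and -0.83 without eutherian CRX library 3.

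*Cdkn1c* (chr7:143458339-143461072, reverse strand), an imprinted gene that encodes p57, measured 19.6, 25.5 and 63.9 CPM in control, 13.7, 16.4 and 22.2 CPM with eutherian CRX, and 18.0, 17.0 and 18.5 CPM with metatherian CRX. Control library 3 alone was high. Its gap to control libraries 1 and 2 was 1.52 on the log2 scale, wider than that of 98.3% of the genes tested in the same library. The log2 fold changes of -0.84 ± 0.30 with metatherian and -0.94 ± 0.29 with eutherian CRX (edgeR adjusted p = 0.197 and 0.402) became -0.43 and -0.50 without control library 3. Metatherian CRX and control did not overlap for this gene after TMM scaling, but did on total counts alone.

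The Cip/Kip transcripts were mostly those of *Cdkn1a*, which held 95.6, 95.9 and 91.9% of their summed FPKM in control, 96.2, 96.0 and 97.3% with eutherian CRX, and 96.5, 97.1 and 97.5% with metatherian CRX. All 6 CRX libraries lay above all control libraries, with a two-sided exact permutation p of 0.1 for either CRX group (0.557 adjusted over 39 tests, 7 of which had the smallest p). The groups nearly met, at 95.88% in control library 2 and 95.98% in eutherian CRX library 2. The lowest control value was that of library 3, in which *Cdkn1c* was high. *Cdkn1b* FPKM was 2.32, 1.66 and 1.96% of *Cdkn1a* FPKM in control, 2.19, 2.29 and 0.773% with eutherian CRX, and 1.38, 1.12 and 0.889% with metatherian CRX. This ratio was lower in all metatherian CRX than in all control libraries, again with an exact permutation p of 0.1 (0.557 adjusted over 39 tests). The summed Cip/Kip FPKM overlapped between conditions.

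*Cdkn2a* (chr4:89274473-89294619, reverse strand) encodes p16Ink4a and, from an upstream first exon in another reading frame, p19Arf, which acts on MDM2 and p53. The count of the gene pools both, since on chromosome 4 (GRCm38) the first exons at chr4:89281986-89282192 and chr4:89294334-89294619 belong to 1 entry, on the reverse strand. It measured 60.5, 72.9 and 136 CPM in control, 55.2, 56.2 and 165 CPM with eutherian CRX, and 81.3, 128 and 43.9 CPM with metatherian CRX. Library 3 was the highest in control and with eutherian CRX but the lowest with metatherian CRX. No other member had as large an SD of log2 CPM over the 9 libraries (0.67), and the log2 fold change with metatherian CRX was 0.09 ± 0.54, with an interval from -1.19 to 1.36 (edgeR adjusted p = 0.947). No direction can be read from this estimate, since the mean CPM was lower with metatherian CRX than in control (84.5 against 89.7) and the log2 fold change was -0.09 without the replicate block.

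*Cdkn2b* (chr4:89306289-89311032, reverse strand), the gene next to it, encodes p15 and is known to respond to TGF-beta. It measured 96.6, 99.3 and 115 CPM in control, 96.4, 96.7 and 167 CPM with eutherian CRX, and 115, 138 and 116 CPM with metatherian CRX. Metatherian CRX library 1 and control library 3 were almost level, so that these groups met there under TMM scaling but not under RLE scaling, and eutherian CRX library 3 was the highest of all. Estimated log2 fold changes were 0.26 ± 0.19 and 0.19 ± 0.19 with metatherian and eutherian CRX (edgeR adjusted p = 0.491 and 0.866), and the second turned to -0.02 without the libraries numbered 3. The first was 0.09 without metatherian CRX library 2 and 0.45 without metatherian CRX library 3.

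*Cdkn2c* (chr4:109660876-109666756, reverse strand), which encodes p18, measured 17.2, 20.1 and 19.1 CPM in control, 15.2, 17.3 and 11.7 CPM with eutherian CRX, and 12.6, 13.4 and 13.3 CPM with metatherian CRX. The metatherian CRX libraries were close together and below every control library, and the eutherian CRX libraries spread from below them into the control range. For metatherian CRX over control the log2 fold change was -0.52 ± 0.15, with an interval from -0.87 to -0.17 and an edgeR adjusted p of 0.143. With eutherian CRX it was -0.37 ± 0.15 (edgeR adjusted p = 0.565), and -0.21 without the libraries numbered 3.

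*Cdkn2d* (chr9:21288459-21291402, reverse strand), which encodes p19Ink4d, was the least abundant of the 10 genes, at 338 to 850 counts per library. It measured 10.1, 9.29 and 11.5 CPM in control, 8.93, 10.0 and 5.15 CPM with eutherian CRX, and 7.74, 6.57 and 5.14 CPM with metatherian CRX. All metatherian CRX libraries lay below all control libraries, and the libraries numbered 3 were the lowest of both CRX groups. Its log2 fold change was -0.71 ± 0.25 with metatherian CRX (interval -1.31 to -0.11, edgeR adjusted p = 0.201) and -0.42 ± 0.25 with eutherian CRX (edgeR adjusted p = 0.744). The estimate for metatherian CRX was -0.38 without control library 3 and -0.88 without control library 2. Without the libraries numbered 3 the estimate for eutherian CRX was -0.04.

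Promoter windows from 250 bases before to 50 after a start were at hand for 7 of the 10 genes, in 11 entries (RefSeq, GRCm38.p6). *Ccnd1*, *Ccnd2* and *Cdkn1c* had no entry. The letters TAATCC, the core bound by CRX and OTX proteins, were in 0 of the 11 windows on either strand, beside 7.06% of the 32851 windows of all genes. An E2F core, TTCCCGC, was in 2 of the 11, beside 4.60% of all windows. A match is a description of letters, and the absence of a match speaks only of these windows. Both matches fell in Ink4 genes, at the upstream start of *Cdkn2a*, from which p19Arf is made, and at the upstream start of *Cdkn2c*, and these windows are shown 5′ to 3′ on the strand of the gene with the E2F core in capitals. The first is chr4:89294681-89294747 on the reverse strand, with the match beginning 98 bases before the start. The second is chr4:109666745-109666811 on the reverse strand, with the match 25 bases before the start.
Cdkn2a upstream start: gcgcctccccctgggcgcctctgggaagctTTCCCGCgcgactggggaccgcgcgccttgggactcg
Cdkn2c upstream start: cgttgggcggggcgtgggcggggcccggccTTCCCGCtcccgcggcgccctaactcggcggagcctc

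The order of the levels per length was much the same in each condition. In control it ran from *Cdkn1a* (427 to 484 FPKM) through *Ccnd2* (247 to 304 FPKM) and *Ccnd1* (131 to 158 FPKM) to *Cdkn2a* (53.3 to 119 FPKM) and *Cdkn2b* (69.4 to 82.2 FPKM), which overlapped each other. Below them came *Ccnd3* (42.3 to 47.9 FPKM) and *Cdkn1c* (9.81 to 32.0 FPKM). *Cdkn1b* (8.05 to 9.91 FPKM), *Cdkn2c* (7.65 to 8.94 FPKM) and *Cdkn2d* (6.38 to 7.91 FPKM) followed, each overlapping its neighbour in the order. With metatherian CRX *Ccnd2* (215 to 277 FPKM) and *Ccnd1* (185 to 212 FPKM) were closer together but did not overlap. *Cdkn1b* there (4.78 to 5.54 FPKM) lay just below *Cdkn2c* (5.61 to 5.95 FPKM). With eutherian CRX *Ccnd2* (132 to 332 FPKM) and *Ccnd1* (148 to 218 FPKM) overlapped.

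**Figure D3:**
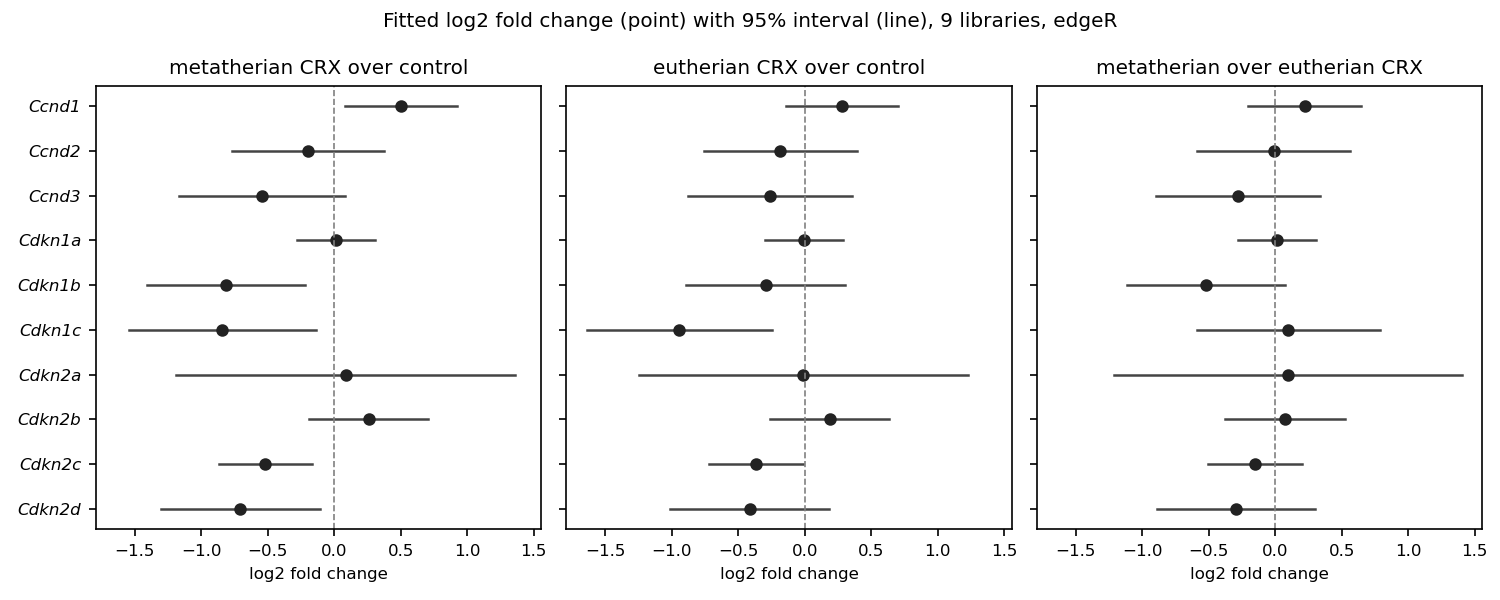
Fitted log2 fold change (point) with its 95% interval (line) for each gene in the 3 comparisons, from the edgeR fit of all 9 libraries. With metatherian CRX over control the interval leaves 0 for Ccnd1 (0.08 to 0.92) on the higher side and for Cdkn1b, Cdkn1c, Cdkn2c and Cdkn2d on the lower side, and with eutherian CRX for Cdkn1c (-1.64 to -0.24) and Cdkn2c (-0.72 to -0.01) on the lower side. None of these passed the adjusted test, and between the CRX groups every interval includes 0.

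Because library 3 of either CRX group stood apart, the test was repeated without the libraries numbered 3, control library 3 included, which leaves 2 libraries per condition. Of the 10 genes 5 then passed between metatherian CRX and control, where 22.2% of all genes tested did (2221 of 10025). *Ccnd1* (log2 fold change 0.51, edgeR adjusted p = 0.0109), *Cdkn2a* (0.63, edgeR adjusted p = 0.0211) and *Cdkn2b* (0.36, edgeR adjusted p = 0.0290) were higher. *Cdkn1b* (-0.74, edgeR adjusted p = 0.00891) and *Cdkn2c* (-0.52, edgeR adjusted p = 0.0129) were lower. The estimates of *Ccnd1*, *Cdkn1b* and *Cdkn2c* were thus close to those with all libraries, and those of *Cdkn2a*, *Ccnd3*, *Cdkn2d* and *Cdkn1c* (0.09, -0.54, -0.71 and -0.84 with all libraries, and 0.63, -0.09, -0.44 and -0.35 without the libraries numbered 3) were not.

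The metatherian and eutherian CRX groups were compared directly without the same libraries. *Ccnd1* (0.47), *Cdkn2a* (0.88) and *Cdkn2b* (0.38) passed the edgeR test as higher with metatherian CRX and *Cdkn1b* (-0.80) as lower, with adjusted p of 0.0154, 0.00700, 0.0230 and 0.00731, where 22.5% of all genes passed. Between eutherian CRX and control 0 of the 10 genes passed the edgeR test, where 2.94% of all genes did, and the log2 fold changes ran from -0.59 for *Cdkn1c* to 0.13 for *Ccnd2*. Leaving out eutherian CRX library 3 alone gave 3 of the 10 genes between metatherian CRX and control (*Ccnd1* higher, *Cdkn1b* and *Cdkn2c* lower), where 8.83% of all genes passed, and *Cdkn1b* alone between the CRX groups, where 3.47% did. No other single library gave a call for any of the 10 genes when it was left out. Why library 3 of either CRX group stood apart was not tested.

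Additional fits, chosen after seeing the data, left out these 2 CRX libraries and kept control library 3. With the replicate block, in which control library 3 is then alone in its number and adds nothing to the differences, 5, 0 and 4 of the 10 genes passed the edgeR test (metatherian over control, eutherian over control and between the CRX groups), where 22.2, 3.5 and 22.5% of all genes did. Without the block, where control library 3 counts, 2, 0 and 1 of the 10 genes passed, where 5.62, 0.189 and 1.66% of all genes did. These were *Ccnd1* (0.55, edgeR adjusted p = 0.0414) and *Cdkn1b* (-0.75, edgeR adjusted p = 0.0238) with metatherian CRX over control, and *Cdkn1b* (-0.80, edgeR adjusted p = 0.0446) between the CRX groups. *Cdkn2a* (0.23, edgeR adjusted p = 0.786), *Cdkn2b* (0.29, edgeR adjusted p = 0.213) and *Cdkn2c* (-0.53, edgeR adjusted p = 0.0535) did not pass over control in that fit.

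**Figure D4:**
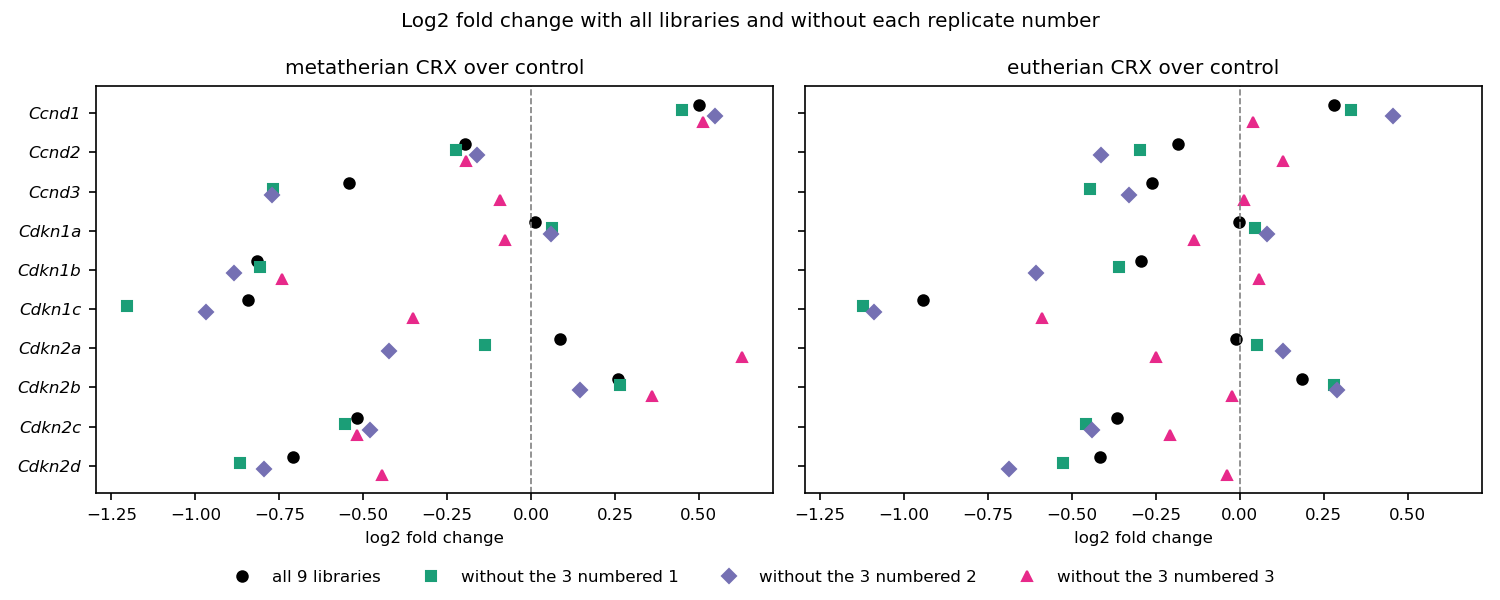
Log2 fold change of each gene over control with all 9 libraries and after leaving out the 3 libraries of one replicate number, for metatherian CRX (left) and eutherian CRX (right). The points of Ccnd1, Ccnd2, Cdkn1b and Cdkn2c with metatherian CRX stay close together, while Cdkn2a moves from 0.09 with all libraries to 0.63 without those numbered 3.

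The 3 members with the largest SD of log2 CPM over the libraries were set beside the genes nearest to them in pattern, by the root-mean-square difference of centred log2 CPM over the 9 libraries. For *Cdkn2a* these were *Mdfi* (0.153), *Ssbp4* (0.178) and *Foxp4* (0.187). *Mdfi* measured 4.16, 4.46 and 9.86 CPM in control, 3.86, 3.69 and 8.69 CPM with eutherian CRX, and 4.70, 7.20 and 2.97 CPM with metatherian CRX, high and low in the same libraries as *Cdkn2a*. For *Cdkn1c* they were *Chd3* (0.222), *Adamts10* (0.234) and *Fbln1* (0.244), each highest in control library 3. For *Cdkn1b* they were *Pdzd4* (0.132), *Cep57l1* (0.136) and *Gxylt2* (0.137), each lowest in eutherian CRX library 3. The 9 libraries share their conditions and the libraries that stood apart, and genes chosen for likeness carry no test.

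The other genes of the pathway were 46 kinases, partner cyclins, pocket and E2F proteins, turnover factors and upstream regulators, of which 43 were tested. None passed the edgeR test with metatherian CRX or between the CRX groups, and 1 fell with eutherian CRX, where 0.584% of all genes passed as lower. This was *Ccna2*, cyclin A2, the partner of CDK2 and CDK1 in S phase and G2. It measured 18.1, 17.8 and 24.2 CPM in control, 5.22, 5.58 and 7.98 CPM with eutherian CRX, and 10.7, 7.58 and 15.8 CPM with metatherian CRX. The eutherian CRX libraries were all below the control libraries, as were those with metatherian CRX. The log2 fold change was -1.69 ± 0.17 with eutherian CRX (edgeR adjusted p = 0.0272) and -0.86 ± 0.16 with metatherian CRX (edgeR adjusted p = 0.0843). No gene of the pathway was called with eutherian CRX without the replicate block, or when any single control library, any single eutherian CRX library or metatherian CRX library 1 was left out.

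Among the 9 kinases and partner cyclins the highest estimate with metatherian CRX was that of *Cdk6*, a kinase partner of the D cyclins, at 0.60 ± 0.21 (edgeR adjusted p = 0.191). Its level was 31.7, 36.0 and 63.8 CPM in control, 29.1, 26.1 and 84.5 CPM with eutherian CRX, and 54.0, 53.9 and 84.8 CPM with metatherian CRX. Library 3 was the highest of every condition, and all conditions overlapped for *Cdk6*. With eutherian CRX 4 of the 9 genes were below control without overlap (*Cdk2*, *Ccne1*, *Ccne2* and *Ccna2*), where 788 of 10100 genes were. With metatherian CRX these were *Cdk2* and *Ccna2*, where 12.3% of all genes were. Only *Ccna2* passed the edgeR test, with eutherian CRX.

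Of the 11 pocket and E2F genes tested, 0 passed in any comparison. *E2f7* and *E2f2*, of the same list, did not reach a mean FPKM above 2 in any condition and were not tested. *E2f7* measured 7.04, 9.37 and 7.78 CPM in control. With eutherian CRX it was at 3.47, 2.55 and 2.09 CPM, and with metatherian CRX at 4.87, 4.28 and 4.14 CPM. It was below control in all 6 CRX libraries, as was *E2f2*, which was at 1.15 CPM or less throughout. Of the 11 tested, *E2f8*, an E2F that represses transcription, had the highest estimate with metatherian CRX (0.65 ± 0.58, edgeR adjusted p = 0.580) and the lowest with eutherian CRX (-0.40 ± 0.62, edgeR adjusted p = 0.927). It measured 6.00, 9.60 and 17.3 CPM in control, 2.79, 2.54 and 41.5 CPM with eutherian CRX, and 8.41, 15.3 and 31.4 CPM with metatherian CRX, so that library 3 was again the highest of each condition. *Rb1*, the retinoblastoma gene itself, had the highest estimate with eutherian CRX (0.28 ± 0.11, edgeR adjusted p = 0.524) and 0.53 ± 0.11 with metatherian CRX (edgeR adjusted p = 0.0878). *Rb1* was at 39.5, 34.1 and 39.4 CPM in control, 44.5, 42.1 and 51.2 CPM with eutherian CRX, and 49.9, 48.4 and 66.4 CPM with metatherian CRX, above control in all 6 CRX libraries. *Rbl1*, its relative p107, had the lowest estimate of the genes tested with metatherian CRX (-0.28 ± 0.15, edgeR adjusted p = 0.355). With eutherian CRX the estimate of *Rbl1* was -0.38 ± 0.15 (edgeR adjusted p = 0.552).

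None of the 9 phosphatase and turnover genes passed. *Skp2*, the F-box protein that marks p27 for degradation, measured 13.0, 15.1 and 14.4 CPM in control, 11.7, 10.6 and 9.33 CPM with eutherian CRX, and 8.07, 7.88 and 11.2 CPM with metatherian CRX. All 6 CRX libraries lay below all control libraries, with log2 fold changes of -0.66 ± 0.19 with metatherian and -0.42 ± 0.19 with eutherian CRX (edgeR adjusted p = 0.141 and 0.597). *Skp2* and *Cdkn1b* transcripts were thus both below control in the metatherian CRX libraries. *Skp1a*, a subunit of the same ligase, had the highest estimate of the list (0.34 ± 0.17 and 0.26 ± 0.17, edgeR adjusted p = 0.327 and 0.759).

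None of the 14 upstream regulators tested passed either. *Mdm2*, which holds p53 down and is itself a p53 target like *Cdkn1a*, measured 333, 409 and 409 CPM in control, 350, 394 and 903 CPM with eutherian CRX, and 448, 520 and 870 CPM with metatherian CRX. The libraries numbered 3 of both CRX groups were the highest, as they were for *Cdkn1a*. The log2 fold change was 0.59 ± 0.23 with metatherian and 0.38 ± 0.23 with eutherian CRX (edgeR adjusted p = 0.226 and 0.744). *Jund*, an AP-1 subunit, had the lowest estimate in both (-0.73 ± 0.54 and -0.55 ± 0.52, edgeR adjusted p = 0.495 and 0.852).

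**Figure D5:**
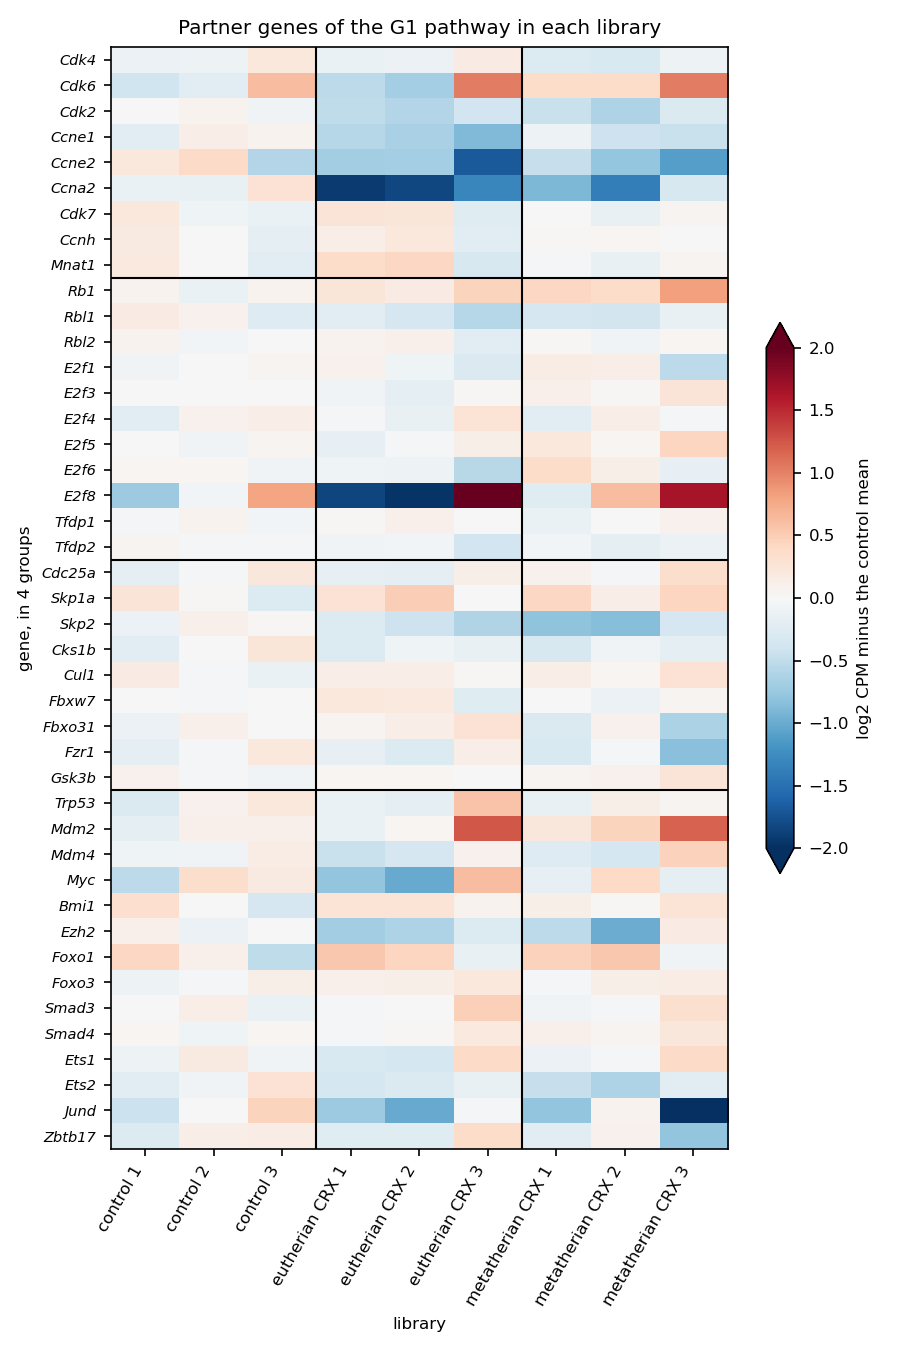
Log2 CPM of the 43 tested pathway genes in each library minus the mean of the control libraries, in 4 groups divided by lines (kinases and partner cyclins, pocket and E2F proteins, turnover factors, upstream regulators), with the colours held at the end of the scale beyond it. Ccna2 is below control in all 6 CRX libraries, and E2f8 and Mdm2 are highest in the libraries numbered 3 of the CRX groups.

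Proliferation genes were read beside these. Of 6 listed, 5 were tested, and 2 fell with eutherian CRX: *Mki67*, the proliferation marker Ki-67, by 2.06 ± 0.16 and *Top2a*, topoisomerase II alpha, by 1.63 ± 0.14 on the log2 scale (edgeR adjusted p = 0.0272 for each), where 0.584% of all genes passed as lower. With metatherian CRX the estimates were -0.93 ± 0.16 and -0.77 ± 0.14 (edgeR adjusted p = 0.0722 and 0.0825). All 5 had lower estimates with either CRX. Without overlap with control were 3 for eutherian CRX (788 of 10100 genes) and 4 for metatherian CRX (12.3% of all genes). *Pcna* and *Mcm2* were lower with metatherian (-0.47 and -0.60) than with eutherian CRX (-0.24 and -0.37). These 2 groups did not overlap for either gene, and neither passed the edgeR test between them. *Mki67* measured 37.2, 47.2 and 65.4 CPM in control, 9.56, 8.65 and 19.4 CPM with eutherian CRX, and 22.5, 18.9 and 39.8 CPM with metatherian CRX. Each eutherian CRX library lay below each control library, and eutherian CRX libraries 1 and 2 also below each metatherian CRX library. As for *Ccna2*, 0 genes were called in this comparison without the replicate block, or when any single control or eutherian CRX library was left out. In the same eutherian CRX libraries the D cyclins and the inhibitors overlapped control and none passed the test. The intervals of *Cdkn1c* (-1.64 to -0.24) and *Cdkn2c* (-0.72 to -0.01) left 0 on the lower side, and those of the other 8 genes included 0, the widest that of *Cdkn2a* (-1.25 to 1.23).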

How the data were processed

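RNA-seq of 9 MEF libraries was used. The authors aligned paired reads to mm10 (GRCm38) with STAR and deposited raw counts per gene and library made with featureCounts, without normalization and without pooling. The annotation release and the strand option are not given in the sources used here.

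R 4.3.3 was used with edgeR (version 4.0.16) and limma (version 3.58.1). filterByExpr kept 14599 of the 22068 genes, and 10100 of these had a mean FPKM above 2 in some condition and were tested. Libraries were scaled by TMM. The model for the quasi-likelihood test held the condition and the replicate number as a block. The study associated samples that were prepared in pairs, but the sources do not name the pairs. Deviations from the condition means correlated above 0.1 in all 6 same-numbered pairs of a control and a CRX library (0.27 to 0.70) and in 2 of the 3 between the CRX groups (lowest 0.0034), and the calls with eutherian CRX rest on this choice (61 genes with the block, 0 without). P-values were Benjamini-Hochberg adjusted over the 10100 genes. SE is the size of the log2 fold change over the square root of F. The prior count of log2 CPM was 2. FPKM used merged exons, for *Cdkn1a* those on chromosome 17 only. Two-sided exact permutation tests over libraries were run on 13 ratios and sums in 3 comparisons (39 tests). The scripts were tested on simulated data.

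The genes, lists and motifs were chosen with earlier results of these data known. Of each list the text names the genes called in any comparison, and otherwise those with the lowest or highest change. *Cdk2*, *Ccne1*, *Ccne2*, *E2f2*, *E2f7*, *Pcna* and *Mcm2* are named outside this rule. Alternatives were DESeq2 1.42.0, limma voom with quality weights, other scalings and filters, thinning to the smallest library, a fit of only the libraries compared, no block, and leaving out libraries (library 3 of both CRX groups together, with and without the block, chosen after seeing the data). Counts of replicate libraries differed by more than sampling noise, so all 9 were kept. A count of 0 allows up to 3 counts, which covers counting error only.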

Additional observations from a re-analysis of the deposited data

How the results depend on the processing

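The 10 genes in 3 comparisons gave 30 estimates, and 23 alternatives gave 690 values, of which 565 kept their direction and side of the threshold, 81 turned their direction and 44 passed the threshold. Each gene had at least 338 counts in each library. Without the replicate block 0 genes were called in any comparison (3, 61 and 0 with it), so *Ccna2* was lost, and of the 10 genes 0 were called either way. The direction without the block turned for *Cdkn2a* (-0.086 with metatherian and 0.041 with eutherian CRX over control, -0.13 between the CRX groups) and for *Cdkn1a* (0.012 with eutherian CRX). The sources do not say which libraries were paired, and the correlation of deviations was above 0.1 in every same-numbered pair with a control library but not between eutherian and metatherian CRX libraries 2 (0.0034), and it was above 0.1 in 5 of 18 pairs with other numbers (highest 0.72). DESeq2 called 1004, 333 and 317 genes in the order metatherian over control, eutherian over control and metatherian over eutherian CRX, 2 of the 10 genes in the first, and 6, 4 and 1 pathway genes. Limma voom with quality weights called 4665, 1697 and 4883 genes, 7, 2 and 7 of the 10 genes, and 15, 11 and 20 pathway genes. A fit of only the 6 libraries compared called 398 and 0 genes over control, with 1 of the 10 genes in the first and 0 pathway genes in the second. No filter on low counts gave 109 genes with eutherian CRX over control, and with either looser filter 2 pathway genes were called there. Leaving out a library or a replicate number gave 0 to 2221, 0 to 295 and 0 to 2258 genes, 0 to 5, 0 and 0 to 4 of the 10 genes, and 0 to 10, 0 to 4 and 0 to 9 pathway genes. Leaving out library 3 of both CRX groups, chosen after seeing the data, gave 2236, 353 and 2263 genes, 5, 0 and 4 of the 10 genes, and 10, 4 and 9 pathway genes with the block. Without the block the same libraries gave 566, 19 and 167 genes, 2, 0 and 1 of the 10 genes, and 4, 1 and 0 pathway genes. With and without the block, the direction then turned for *Cdkn1a* in metatherian CRX over control (-0.076 and -0.085), and in eutherian CRX over control for *Ccnd2* (0.13 and 0.21), *Cdkn1b* (0.059 and 0.047) and *Cdkn2b* (-0.022 and -0.099), and for *Ccnd3* with the block (0.014). In metatherian CRX over control, *Cdkn1a* turned with upper-quartile scaling (-0.012), with voom (-0.070) and with libraries left out (-0.096 to 0.075), and *Cdkn2a* with only 6 libraries (-0.091) and with libraries left out (-0.51 to 0.72). In eutherian CRX over control, *Cdkn1a* turned with RLE factors (0.0015), DESeq2 (0.0015), only 6 libraries (0.0029), upper-quartile scaling (0.0066), filterByExpr alone (0.015) and no filter (0.020), *Cdkn2a* with filterByExpr alone (0.0077) and no filter (0.014), and *Ccnd3* with voom (0.058). Libraries left out there gave -0.43 to 0.14 for *Ccnd2*, -0.46 to 0.12 for *Ccnd3*, -0.14 to 0.080 for *Cdkn1a*, -0.61 to 0.057 for *Cdkn1b*, -0.64 to 0.31 for *Cdkn2a* and -0.074 to 0.34 for *Cdkn2b*. Between the CRX groups *Ccnd2* turned with only 6 libraries (0.017) and *Cdkn1a* with upper-quartile scaling (-0.018), and libraries left out gave -0.32 to 0.25 for *Ccnd2*, -0.48 to 0.0068 for *Ccnd3*, -0.046 to 0.11 for *Cdkn1a*, -0.18 to 0.38 for *Cdkn1c*, -0.55 to 0.88 for *Cdkn2a* and -0.14 to 0.38 for *Cdkn2b*. The cause of these changes was not tested. In a fit that leaves 2 libraries in a condition the spread is shared over all conditions.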
